A study of Sus scrofa domesticus with 4 samples.

Results

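The genes described here were 9 pig genes of the early transcriptional and kinase response to receptor signalling: the transcription factors FOS, JUN, MYC, ATF3, NR4A1 and KLF4, the phosphatase DUSP1, and the kinases MAPK3 and AKT1. They were taken as every non-control probe whose RefSeq mRNA accession belongs to one of these genes. This gave 13 of the 43603 non-control probes, for 5 of the 9 genes: FOS (1 probe), JUN (1), MYC (3), KLF4 (7) and AKT1 (1). No probe was matched to ATF3, NR4A1, DUSP1 or MAPK3, and these 4 genes were not analysed here. All 13 probes were well above background on all 4 arrays in both channels, so that none of them entered through only one condition.

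Orexin B is a neuropeptide that acts on the G protein-coupled orexin receptors HCRTR1 and HCRTR2, which raise intracellular calcium and can activate the extracellular signal-regulated kinases and AKT. Immediate early genes such as FOS and JUN are transcribed from pre-existing factors within minutes of such a signal, and their transcripts are short-lived. FOS and JUN proteins pair to form the transcription factor AP-1, while MYC drives growth genes and KLF4 is a zinc finger factor known in smooth muscle as a repressor of contractile genes. The comparison therefore asked what was measurable in these transcripts a day after the peptide was added.

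The series holds 4 Agilent pig arrays of 2 colours. Each array carried RNA of myometrial slices cultured with 10 nM orexin B for 24 h, after 2 h of preincubation, together with RNA of slices of the same culture length without treatment. The myometrium is the muscle layer of the uterus. The slices (100 mg, 3 mm thick, cut from the middle of the uterine horns) came from 4 Large White x Polish Landrace gilts on days 15 to 16 of gestation, aged 7 to 8 months and weighing 120 to 130 kg, and each culture was set up in duplicate. The labels give 4 separate experiments but do not tie an array to a gilt, and a p-value here reflects only how far the 4 arrays differ from each other. The dyes were swapped between arrays: RNA of orexin B slices was labelled with Cy5 for arrays 1 and 3 and with Cy3 for arrays 2 and 4. Ratios are given as log2 of orexin B over untreated, with the sign set by these dye labels. The slices hold several cell types, and in such samples fewer cells of a type and less RNA per cell cannot be told apart.

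Of all probes, 19881 were bright enough to test, and 1959 named genes were represented among them. Array 1 lay on a slide and in a scan of its own, and arrays 2, 3 and 4 shared a slide and a scan. Between 48.7% and 54.3% of probes were well above background in the orexin B channel and between 37.6% and 58.2% in the untreated channel. All 7 smooth muscle markers with a probe passed the filter, as the labelled tissue requires. So did 9 of 9 macrophage markers, 4 of 4 endothelial, 4 of 4 fibroblast and 3 of 4 epithelial markers, but only 2 of 8 T and NK cell markers and 0 of 3 B cell markers. The receptor probes (HCRTR1, 1 probe, and HCRTR2, 2 probes) rose well above background on 0 arrays in both channels, and no ratio is given for them.

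None of the 5 genes differed between orexin B and untreated slices beyond the spread of the arrays. Of the 13 probes, 0 reached an adjusted p of 0.05 by limma, as did 0 of the 19881 tested (0.0%). At an unadjusted p under 0.05 there were again 0 of 13, against 7.72% of all tested probes (4.31% higher and 3.41% lower), and 0 of 13 had the same sign on all 4 arrays, against 16.0% of all tested probes. The mean was below 0 for 12 of the 13 probes, against 45.9% of all tested probes. Of the 12, 7 are probes of the single gene KLF4, so the count is not one of independent genes. The median over the 5 genes, each taken at its brightest probe, was -0.17, beside 0.02 over all 1959 named genes. It was -0.10 without array 1, -0.03 without array 2 and -0.29 without array 3. Leaving out 1 array, here and below, also leaves the dye orientations unbalanced.

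**Figure D1:**
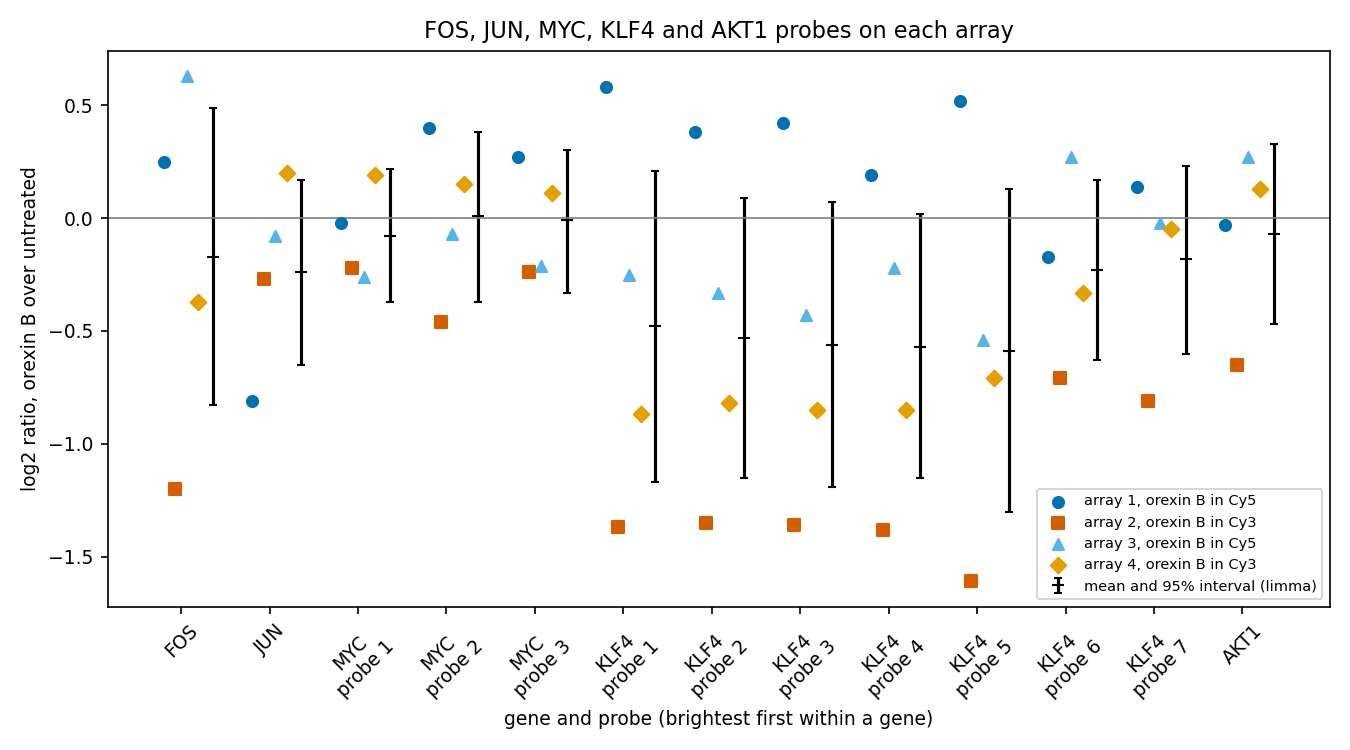
Log2 ratio of orexin B over untreated (vertical axis) for each of the 13 probes of FOS, JUN, MYC, KLF4 and AKT1 (horizontal axis); symbols are the 4 arrays, and black bars the mean with its 95% interval from limma. Every interval crosses 0, and the 5 brighter KLF4 probes are lowest on array 2 and highest on array 1.

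FOS, the inducible subunit of AP-1, had a mean close to 0 made of opposite values. Its log2 ratios were 0.25, -1.20, 0.63 and -0.37 on arrays 1 to 4. It was higher with orexin B on both arrays that carried the peptide's RNA in Cy5 and lower on both that carried it in Cy3, with no overlap between these pairs. The mean was -0.17 ± 0.28 (moderated standard error, 4 arrays), with a 95% interval from -0.83 to 0.49 and an adjusted p of 0.903. The interval allows a change between 0.562-fold and 1.41-fold. A mean of 0.44 on the Cy5 pair stood against -0.78 on the Cy3 pair. The pairs thus differed by 1.22. In a fit with dye as a further term, orientation was coded +1 and -1. A dye coefficient, here and below, is therefore the distance of each pair from the mean of all arrays. For FOS it was 0.61 ± 0.16 (adjusted p = 0.266, limma), and the orexin B term had an adjusted p of 0.745. FOS was the only 1 of the 13 probes whose sign followed the dye on all 4 arrays, a pattern that 9.63% of all tested probes showed. Without array 2 its mean was 0.17, and without array 3 it was -0.44.

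In absolute terms the FOS signal of untreated slices varied more between arrays than it differed between conditions. Its normalized log2 brightness was 9.06, 10.43, 9.49 and 9.20 in the untreated channel of arrays 1 to 4 and 9.32, 9.23, 10.12 and 8.83 in the orexin B channel. The untreated channel of array 2 and the orexin B channel of array 3 were the 2 high values, and both were read in Cy5. The other 2 Cy5 readings, 9.32 with orexin B on array 1 and 9.20 untreated on array 4, lay within the range of the Cy3 readings. The means were 9.54 ± 0.62 untreated and 9.37 ± 0.54 with orexin B (SD, n = 4), and the groups overlapped.

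JUN, the partner of FOS in AP-1, was lower with orexin B mainly on array 1. Its ratios were -0.81, -0.27, -0.08 and 0.20 on arrays 1 to 4. A single array, number 4, was above 0, and the lowest value was that of the array on its own slide. The mean was -0.24 ± 0.17 (95% interval -0.65 to 0.17, adjusted p = 0.766, limma), and it was -0.05 on the shared slide, without array 1, and -0.39 without array 4. Unlike FOS, JUN was not split by dye: the Cy5 pair had a mean of -0.44 and the Cy3 pair of -0.04 (dye coefficient -0.20 ± 0.16, adjusted p = 0.612), and the difference between the 2 genes was not tested. The JUN level was 15.65 ± 0.33 in untreated slices and 15.41 ± 0.49 with orexin B (log2 brightness, SD, n = 4). The values overlapped, from 15.24 to 15.92 and from 14.71 to 15.84. No spot on the arrays was saturated, JUN's included.

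MYC, a target of mitogenic signalling that promotes growth and ribosome production, was the gene with the narrowest intervals. Its brightest probe had ratios of -0.02, -0.22, -0.26 and 0.19 on arrays 1 to 4, the second 0.40, -0.46, -0.07 and 0.15, and the third 0.27, -0.24, -0.21 and 0.11. The 3 probes matched in direction on arrays 2, 3 and 4, where all were below, below and above 0, and differed on array 1. Their means were -0.08 ± 0.13, 0.01 ± 0.16 and -0.01 ± 0.13, with adjusted p of 0.903, 0.997 and 0.988. The interval of the brightest probe ran from 0.771-fold to 1.17-fold, and the widest, that of the second, from 0.773-fold to 1.30-fold. The level of the brightest probe was 11.87 ± 0.41 untreated and 11.80 ± 0.30 with orexin B (log2 brightness, SD, n = 4).

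**Figure D2:**
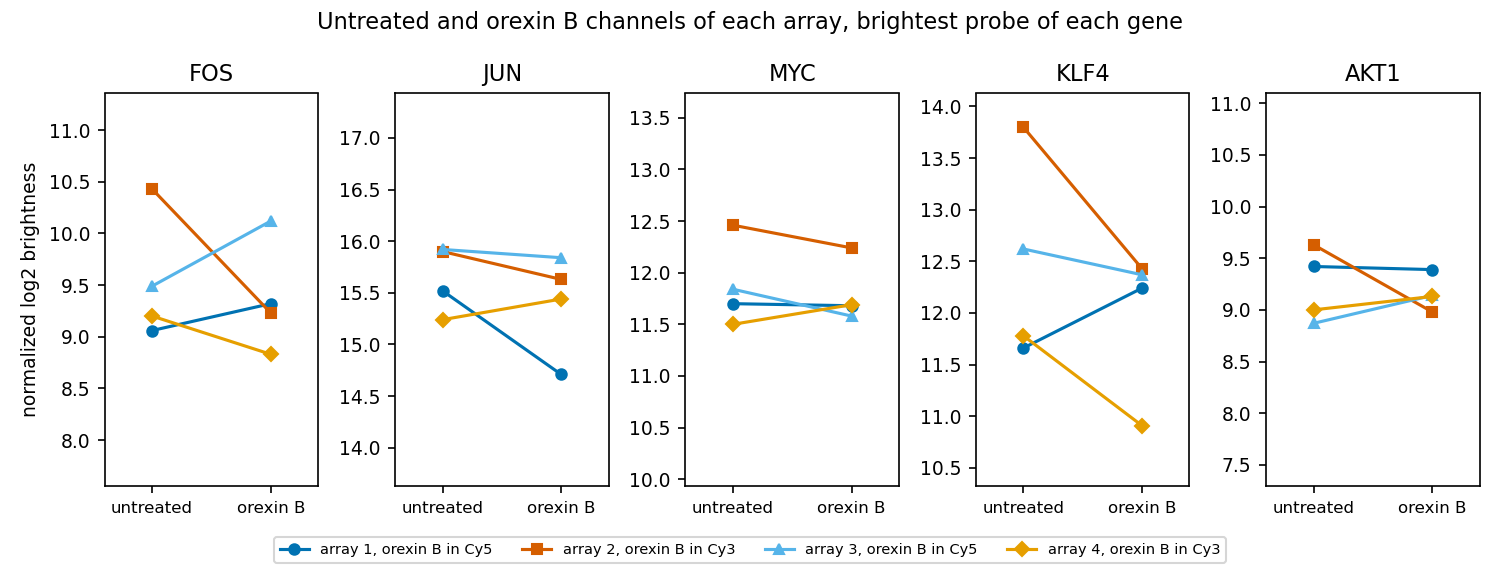
Normalized log2 brightness of the brightest probe of FOS, JUN, MYC, KLF4 and AKT1 in the untreated and the orexin B channel; each line joins the 2 channels of an array, and all panels span the same height. KLF4 in the untreated channel ranges from 11.66 on array 1 to 13.80 on array 2, and lines of FOS cross in both directions.

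KLF4 had the lowest mean ratios of the 5 genes, but it also had the widest spread. Its brightest probe had ratios of 0.58, -1.37, -0.25 and -0.87 on arrays 1 to 4, and its mean was -0.48 ± 0.29 (95% interval -1.17 to 0.21, adjusted p = 0.742, limma). Arrays 2 and 4 were low, array 3 slightly below 0 and array 1 above it. KLF4 was thus 1.39-fold lower on average, within an interval that reached from 2.25-fold lower to 1.16-fold higher.

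The 7 KLF4 probes share a transcript and the same RNA, and serve as repeat readings rather than replicates. The 5 brighter ones followed each other closely. On array 1 they ran from 0.19 to 0.58, on array 2 from -1.61 to -1.35, on array 3 from -0.54 to -0.22 and on array 4 from -0.87 to -0.71. Their SD within an array was between 0.07 and 0.15, against an SD of 0.77 between the arrays of their mean. Over all 7 probes the SD within an array was between 0.26 and 0.33, against 0.64 between the arrays of their mean. The means of the 5 brighter probes ran from -0.59 to -0.48, with unadjusted p from 0.0558 to 0.147 and adjusted p from 0.644 to 0.742.

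The remaining 2 KLF4 probes, the dimmest, had smaller ratios. They read -0.17 and 0.14 on array 1, -0.71 and -0.81 on array 2, 0.27 and -0.02 on array 3, and -0.33 and -0.05 on array 4. Both were lowest on array 2, as were the brighter 5, and their means were -0.23 ± 0.17 and -0.18 ± 0.18 (adjusted p = 0.764 and 0.824). The 7 probes thus had the same sign on arrays 2 and 4 and differed in sign on arrays 1 and 3.

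KLF4's value moved when single arrays were left out, and it differed between the dye orientations. Each orientation is a pair of arrays, so dye cannot be told apart from the arrays in it. Without array 1, that is on the shared slide, the 5 brighter probes had means from -0.95 to -0.82. Their unadjusted p ran from 0.00488 to 0.0122, and their adjusted p was 0.763 (limma). In that fit 2.40% of all probes were lower at an unadjusted p under 0.05. Orexin B RNA was then in Cy5 only on array 3 and in Cy3 on arrays 2 and 4, so these values are not balanced for dye. Without array 2 the means were from -0.30 to -0.18. With the brighter probes, the pair with orexin B in Cy5 had means between -0.02 and 0.16 and the pair with it in Cy3 between -1.16 and -1.08. With dye as a term, the dye coefficient of the brightest probe was 0.64 ± 0.17 (adjusted p = 0.266, limma). In that fit the same 5 probes, and no other of the 13, reached an unadjusted p under 0.05 for orexin B (0.0055 to 0.0331, adjusted 0.226 to 0.362), where 5.20% of all tested probes were lower at that level.

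The KLF4 level in untreated slices differed widely between arrays. The brightest probe read 11.66, 13.80, 12.62 and 11.78 in the untreated channel of arrays 1 to 4, and 12.24, 12.43, 12.37 and 10.91 in the orexin B channel. Array 2 was highest in the untreated channel, by more than any difference between the other 3 arrays, and array 4 was lowest in the orexin B channel. The means were 12.46 ± 0.99 untreated and 11.99 ± 0.73 with orexin B (SD, n = 4), and the groups overlapped. The untreated SD was larger than the mean difference between conditions.

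The other genes whose ratios were most like KLF4's over the 4 arrays were found by the root mean square difference from its brightest probe. The nearest of the 1959 named genes was TPM2, a tropomyosin of the contractile filament, at 0.17, with ratios of 0.43, -1.15, -0.06 and -0.90. IGFBP6, a binding protein of insulin-like growth factors, followed at 0.19, then CDS2 at 0.31, the mitochondrial enzyme GLUD1 at 0.33 and MYOC at 0.34. All 5 were low on arrays 2 and 4, which follows from their selection by KLF4's own ratios. None passed the threshold over all probes (adjusted p from 0.596 to 0.744, limma). TPM2 is also 1 of the smooth muscle markers.

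Smooth muscle and fibroblast marker medians, like KLF4 and FOS ratios, were lower on arrays 2 and 4 than on arrays 1 and 3. The 7 smooth muscle markers had medians of -0.01, -1.15, 0.19 and -1.24 on arrays 1 to 4. All 7 had a mean below 0, against 46.2% of named genes, but 0 reached an unadjusted p under 0.05 (limma). The 4 fibroblast and stroma markers had medians of -0.02, -0.72, 0.00 and -0.77, all 4 with a mean below 0. Of these, 1 was lower at an unadjusted p under 0.05 (limma), against 4.24% of named genes. The summed smooth muscle level ranged from 18.03 to 19.46 with orexin B and from 18.88 to 19.79 untreated (log2 brightness), and the summed fibroblast level from 15.51 to 16.30 and from 16.23 to 16.30. Single markers went otherwise. On array 1 the muscle marker MYLK read -0.91 and the stromal marker DCN -0.59. On array 3 the muscle markers ACTA2 and DES read 0.77 and 0.65. By their medians, both marker groups were low on the 2 arrays where KLF4 was low, and near 0 where it was not. The 9 macrophage markers did not follow this order, with medians of 0.69, 0.18, 0.86 and 0.76 and all 9 means above 0; 8 of the 9 had an unadjusted p under 0.05, against 6.23% of named genes that were higher at that level, and 0 passed over all probes. A dye term was fitted, as given above, but how far cell composition, dye and slide each shared in the KLF4 and FOS values was not tested.

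**Figure D3:**
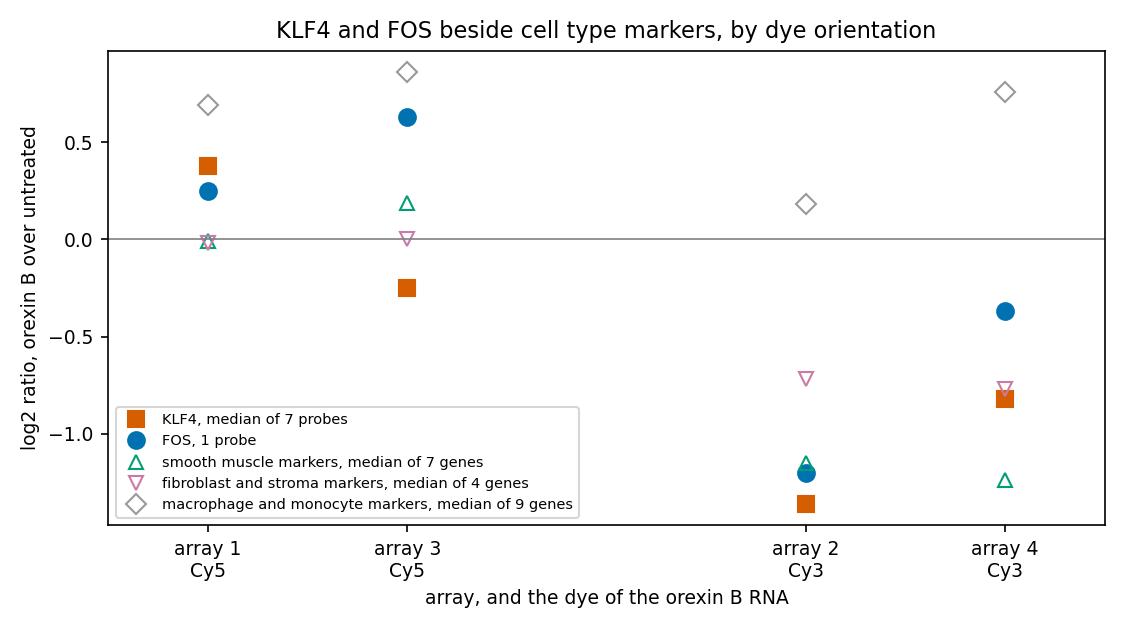
Log2 ratio of orexin B over untreated (vertical axis) for KLF4 (median of 7 probes), FOS (1 probe) and the medians of 3 marker lists, with the arrays grouped by the dye of the orexin B RNA (horizontal axis). FOS is above 0 on both Cy5 arrays and below 0 on both Cy3 arrays, and KLF4, smooth muscle and fibroblast markers are lowest on the Cy3 arrays.

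AKT1, the kinase downstream of phosphatidylinositol 3-kinase, was the only kinase of the 9 genes that was measured. Its ratios were -0.03, -0.65, 0.27 and 0.13 on arrays 1 to 4. Array 2 alone was clearly below 0, and the values went both ways on the other arrays. The mean was -0.07 ± 0.17 (95% interval -0.47 to 0.33, adjusted p = 0.941, limma), and 0.12 without array 2. The level was 9.23 ± 0.36 in untreated slices and 9.16 ± 0.17 with orexin B (log2 brightness, SD, n = 4), with all orexin B values between 8.98 and 9.39 and inside the untreated range of 8.87 to 9.63.

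Dye orientation separated the arrays for 2 of the 5 genes. All probes of FOS and KLF4, 8 of the 13, had both Cy5 arrays above both Cy3 arrays, against 23.6% of all tested probes. The dye term itself had an unadjusted p under 0.05 for 6 of the 13, FOS and the 5 brighter KLF4 probes, against 12.5%, and an adjusted p under 0.05 for 0.

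Array 2 was the low array for most of these genes. It held the lowest ratio of 11 of the 13 probes, all but JUN and the brightest MYC probe, against 30.4% of all tested probes. Of these 11, 7 are repeat readings of KLF4, and the 11 come from 4 genes. The median over the 5 genes was -0.02, -0.65, -0.08 and 0.13 on arrays 1 to 4. The median over all named genes was 0.05, -0.09, 0.03 and 0.05, so the named genes as a whole were slightly low on array 2 too. In the untreated channel of array 2, KLF4, FOS, MYC and AKT1 each had their highest level of the 4 arrays at the brightest probe, while JUN's 15.90 was just under the 15.92 of array 3. The third MYC probe, also lowest in ratio on array 2, had its lowest untreated level there, at 11.34. The untreated level is the denominator of the ratio, so these values are not independent of it.

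The rest of the pathway was examined through 7 lists, in which a gene stood for its brightest tested probe. Of 195 listed genes, 51 had a probe and 46 were tested. None passed over all probes (0 of 46, limma). At an unadjusted p under 0.05, 2 were higher and 1 was lower, against 10.5% of all named genes (6.23% higher and 4.24% lower). All 4 arrays had the same sign for 6 of the 46, against 15.3% of named genes. With each array centred on its median in place of loess, 0 of the 46 reached an unadjusted p under 0.05, and the calls at that level among all tested probes were 172 higher and 5 lower, against 856 and 678. Means were above 0 for 32 and below 0 for 14, with a median of 0.06 beside 0.02 for all named genes, of which 46.2% had a mean below 0.

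Among other immediate early transcription factors, 7 of 28 listed genes were tested, 3 above and 4 below 0, with a median of -0.02. KLF6, a zinc finger factor related to KLF4, had ratios of 0.22, 0.50, 0.58 and 0.80 on arrays 1 to 4. It was above 0 on every array, unlike KLF4, with a mean of 0.53 ± 0.13 (unadjusted p = 0.00514, adjusted p = 0.596). Its 4 tested probes did not match each other, with means from -0.07 to 0.53. KLF2, a flow-responsive factor of endothelium, had -0.16, -1.75, -0.01 and -0.41, a mean of -0.58 ± 0.28 (adjusted p = 0.671). Without array 2 the mean was -0.19, and a second KLF2 probe had a mean of 0.30. The sign of the mean therefore depended on the probe for KLF2 and KLF6, though the lowest KLF6 mean was close to 0.

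Among other immediate early genes, 11 of 29 were tested, 6 above and 5 below 0, with a median of 0.13. BTG2, an antiproliferative early gene, was the only one below 0 on all 4 arrays, with -0.49, -0.06, -0.20 and -0.93, and it was the 1 lower gene at an unadjusted p under 0.05. Its mean was -0.42 ± 0.17 (unadjusted p = 0.0385, adjusted p = 0.627), and its other probe had a mean of -0.56. Without array 4 the mean of the first was -0.25.

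Genes of the kinase cascades lay close to 0. Of the RAS, RAF and MAP kinase list 6 of 36 were tested, with means from -0.05 to 0.29, a median of 0.03 and 0 at an unadjusted p under 0.05. Of kinases downstream of MAP kinases and the factors they phosphorylate, 6 of 21 were tested (median 0.12). MEF2A, a factor phosphorylated by the p38 kinases, had 0.37, 0.79, 0.25 and 0.26, above 0 on every array, and a mean of 0.42 ± 0.14 (unadjusted p = 0.0173, adjusted p = 0.596). Its 4 tested probes had means from -0.17 to 0.42, so that the sign of its mean too depended on the probe.

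Feedback and survival branches gave few measurements. Of 19 feedback inhibitors, 1 was tested, the phosphatase DUSP6 of the extracellular signal-regulated kinases, with ratios of 0.62, -0.06, -0.27 and 0.15 and a mean of 0.11 ± 0.16 (adjusted p = 0.890). DUSP6 showed no common direction, and no other of the dual specificity phosphatases on the list was measured. Of the phosphatidylinositol 3-kinase and AKT list, 5 of 28 were tested, all 5 with means above 0, from 0.04 to 0.14, and a median of 0.09. PIK3CG, a catalytic subunit activated by G proteins, was above 0 on every array (0.09, 0.24, 0.02 and 0.01, mean 0.09 ± 0.11, adjusted p = 0.867, or 0.04 without array 2), and was well above background on 3 of 4 arrays in the untreated channel.

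Upstream of these, 10 of 34 genes of the receptors, G proteins, phospholipase C and protein kinases A and C were tested, with a median of 0.08 and 0 at an unadjusted p under 0.05. GNAS, the stimulatory G protein subunit, had -0.18, -0.18, -0.12 and -0.57, below 0 on every array, with a mean of -0.26 ± 0.13 (adjusted p = 0.671), or -0.16 without array 4. It has 14 tested probes, with means from -0.26 to 0.02, and the one described is the lowest of them.

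**Figure D4:**
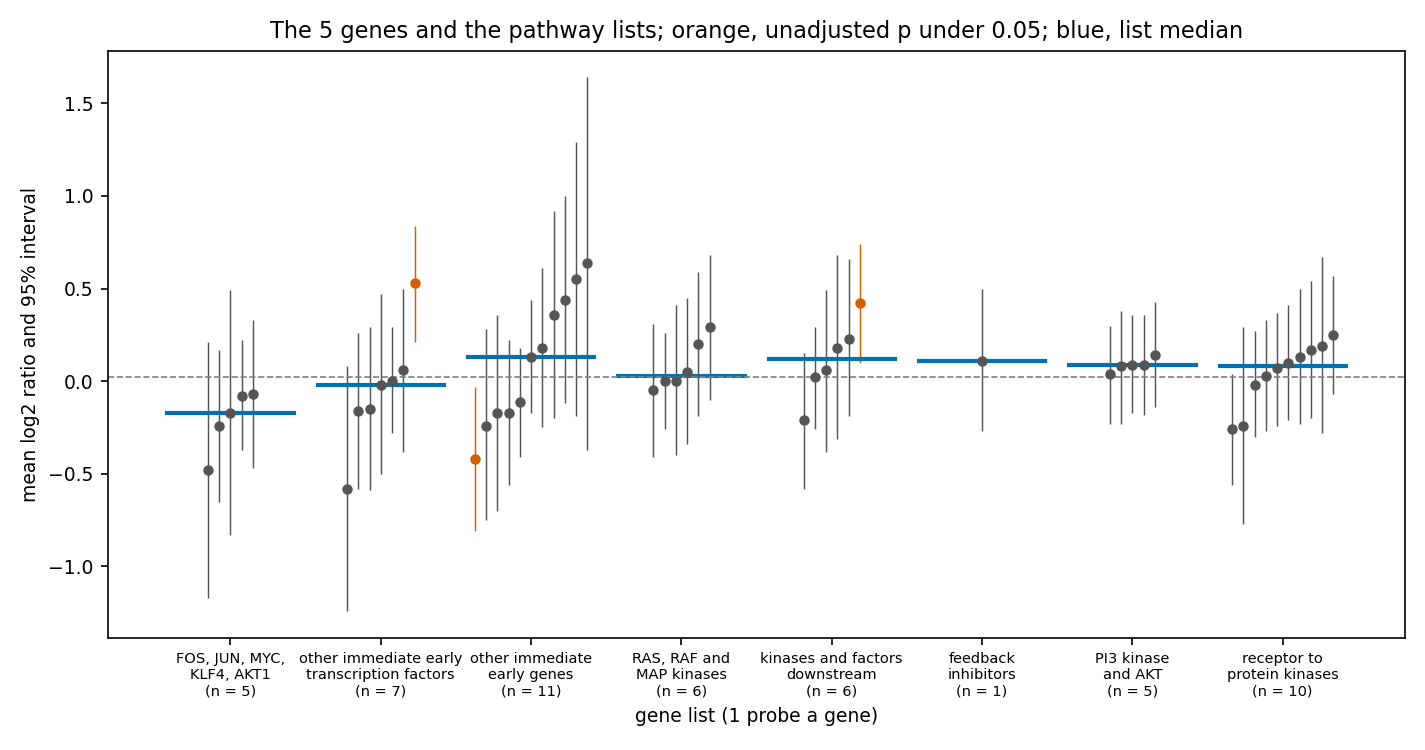
Mean log2 ratio of orexin B over untreated with its 95% interval (vertical axis) for each tested gene, by list (horizontal axis, n genes tested); orange marks an unadjusted p under 0.05, blue lines the list medians and the dashed line the median of all named genes, 0.02. Only KLF6, BTG2 and MEF2A are orange, and the 5 genes FOS, JUN, MYC, KLF4 and AKT1 all have means below 0.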

How the data were processed

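In the deposited scanner output, each spot has an intensity per dye; per the file headers, the software was Agilent Feature Extraction, version 10.7.3.1. They also hold a log10 ratio of the processed intensity values, red over green, per the file headers. The authors' deposited series table holds log2 ratios. With the scanner ratio of arrays 2 and 4 turned and put on the log2 scale, between 99.96% and 99.97% of its values per array matched within 0.01, so its direction is orexin B over untreated. Its medians were -0.27, -0.08, -0.20 and -0.09, with no further centring, and no column was left unmapped.

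The dye fields of the labels gave each ratio's direction. The protocol text names only the orientation of arrays 1 and 3. Median signals were corrected with normexp (offset 50) and then by loess, in which control spots had weight 0 (R 4.3.3, limma 3.58.1). Spots marked as outliers (31 to 138 per array) were left out. A probe was tested if well above background on all 4 arrays in either channel and unmarked on at least 3. An intercept model was fitted with limma's lmFit and eBayes (3 residual and 4.10 prior degrees of freedom). It gave two-sided p-values, with Benjamini-Hochberg adjustment across every tested probe. The same fit was run on simulated ratios with independent noise and no dye or slide structure. Such ratios differ from these arrays, and no conclusion is drawn from them. For levels, channels were computed after Aquantile normalization of brightness between arrays; levels of different probes are not comparable. The gene table of Sscrofa11.1, joined by unversioned RefSeq accession, named 6599 probes. Coordinates were not used, since the files state no build.

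The genes and lists were chosen with earlier results of these data known. Named genes were the 9 listed, HCRTR1 and HCRTR2, up to 3 genes per pathway list with the smallest p and the same sign on 4 arrays, and the 5 genes nearest to the listed gene of widest range. DUSP6 and the marker lists are described as well, and DUSP6 was chosen after its values were seen. Alternatives changed background, normalization, filter, source, dye, slide, test or the arrays used. Plots were made in matplotlib 3.10.9 (Python 3.11.15).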

Additional observations from a re-analysis of the deposited data

Results flagged for a closer look

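Each group of 4 array values was checked for an array standing apart: 4 of 36 groups held one, where chance gives about 1.8. For the RAS, RAF and MAP kinase list, the median was -0.32 on array 2, while the other arrays had 0.13 to 0.17. The median of all pathway genes together was -0.10 on array 2, against 0.10 to 0.13, and that of all named genes was -0.09 on array 2, against 0.03 to 0.05. These 3 share genes and the same array. GNAS had -0.57 on array 4 and -0.18 to -0.12 on the rest. None of the 13 probes of FOS, JUN, MYC, KLF4 and AKT1 was among the 4.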

How the results depend on the processing

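With 4 arrays, 0 of the 13 probes and 0 of all tested probes reached an adjusted p of 0.05 for orexin B under any alternative run. Of 265 values of 19 single probes under alternatives, 238 kept their direction and 27 did not. Without turning arrays 2 and 4, which gives the dye and not orexin B, FOS read 0.61, the KLF4 probes 0.64, 0.55, 0.55, 0.55, 0.57, 0.28 and 0.25 from the brightest down, AKT1 0.19, the third MYC probe 0.05, KLF6 -0.12, KLF2 0.50, BTG2 0.08, MEF2A -0.11, PIK3CG -0.03, GNAS 0.11 and the median of the 5 genes 0.19. The second MYC probe read -0.07 with median centring, -0.02 with the scanner software's ratio and with the series table, and -0.05 with slide as a random block. Leaving out 1 array, it ran from -0.13 to 0.16, the third MYC probe from -0.11 to 0.06, FOS from -0.44 to 0.17, the dimmest KLF4 probe from -0.29 to 0.03 and AKT1 from -0.18 to 0.12. At an unadjusted p under 0.05 the 13 probes held 0, against 7.72% of all tested probes. They held 1 without background correction, 2 without turning and 0 to 5 with 1 array left out (5 without array 1, 1 without array 3). With a dye term they held 5, also 5 with it and no background correction, and 5 with it and median centring. They held 5 with slide as a random block (21.5% of all tested probes). The estimated correlation within the slide was then -0.259. In that fit the 5 brighter KLF4 probes had standard errors of 0.18 to 0.23, against 0.25 to 0.30 in the main fit, so it was not a stricter test. Each count of 5 was made of the 5 brighter KLF4 probes, repeat readings of 1 gene.

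All 19881 tested probes held 1534 at that level, 1596 without background correction, 1655 without turning and 177 with median centring. Without the brightness filter there were 2302, but more than 19881 probes were then tested. With a dye term there were 2382, with it and no background correction 2440, and with it and median centring 1529. There were 4280 with slide as a random block, and 727 to 1922 with 1 array left out (727 without array 4, 1249 without array 1). The pathway genes held 3 of 46 in the main fit, against 10.5% of named genes, and 0 with median centring. They held 1 with the scanner software's ratio or the series table, 6 with a dye term, 5 without turning and 11 with slide as a random block. With 1 array left out they held 2 to 6 (5 without array 2, 6 without array 3). Named genes were not counted at this level outside the main fit. The total over all tested probes also fell with median centring and rose with a dye term and with slide as a random block. It did not follow with the scanner software's ratio (1597) or without array 2 (1436). Median centring moved the median of all tested probes from 0.02 to 0.00 and their share below 0 from 45.9% to 50.6%. With the scanner software's ratio and with the series table, the median of other immediate early transcription factors was -0.11 and that of the AKT list 0.19. With 1 array left out the former ran from -0.15 to -0.01 and that of other immediate early genes from -0.01 to 0.11. The dye term itself had 0 probes past an adjusted p of 0.05 (2494 at an unadjusted p under 0.05, 6 of the 13), and 9214 when loess was replaced by median centring, 13 of the 13 at the unadjusted level. The dye term with another background correction or centring was chosen after seeing the data. The causes were not tested. Each ratio pairs both conditions within an array, so the main fit is paired by array, with no further replicate block. The labels do not tie an array to a gilt, so a pairing by animal is not established.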
